A study of Mus musculus with 28 samples.

Results

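Atf3 and Cebpd, 2 genes for stress-induced transcription factors of the basic leucine zipper class, were followed in the midbrain of mice that carried an injection of colon carcinoma cells. They were chosen by their 192 h ratios, since both lay above 0 in every replicate at that time in an earlier reading of these data. Their 192 h values are therefore a description and carry no test. They are 2 of the 8726 genes that the arrays name, each with 1 probe on the arrays used, and both were among the 4410 genes tested. Male BALB/c mice, 8 weeks old, were injected subcutaneously either with 1000000 cells of the mouse colon carcinoma line CT-26.WT in 300 µl of PBS or with 300 µl of PBS alone, and the midbrain was taken 18, 72 or 192 h later. Each 2-colour array held RNA of tumour-injected mice in one dye and RNA of PBS-injected mice in the other. The arrays numbered 309 and above, which are those used, comprise 10 arrays of 5 biological replicates at 18 h, 4 arrays of 2 replicates at 72 h and 7 arrays of 4 replicates at 192 h. PolyA RNA was used for 2 replicates at 18 h and 2 at 192 h, and total RNA for the others. The polyA arrays used were of other array designs than the total RNA arrays. The kind of RNA and the array design therefore cannot be told apart. The file headers call the channels A and B. They were read as Cy3 and Cy5, the order of the channels in the labels, so the direction of every ratio is likely rather than settled, and the reverse reading would turn every sign. Replicates of total RNA were hybridised in both dye orientations, whereas each polyA replicate was hybridised in 1. The labels leave unsaid how many animals made up a replicate, so the p-values measure only the spread between these samples. In bulk tissue, fewer cells of a type and less RNA per cell cannot be told apart.

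Atf3 encodes a member of the ATF/CREB family that is low in resting cells and is induced by amino acid shortage, unfolded proteins, DNA damage and axon injury. Cebpd encodes C/EBP delta, a member of the C/EBP family that is induced by interleukin-6, interleukin-1 and glucocorticoids and takes part in the acute phase response. In the brain, ATF3 is known as a marker of injured neurons, and C/EBP delta is known from astrocytes and microglia in inflammation. Such factors bind DNA as pairs, and ATF and C/EBP proteins can pair with each other.

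In RefSeq's annotation of GRCm38.p6, Atf3 lies on chromosome 1 from 191170296 to 191183333 and Cebpd on chromosome 16 from 15887286 to 15889545. The probes are identified by the transcripts NM_007498 and NM_007679, without a probe sequence, so the exon that each probe matches is not given here. RefSeq's promoter table for GRCm38.p6 held 1 of the 2 genes, Atf3. Its 250 bases before the start, at chr1:191183334-191183583 on the minus strand, are shown because the factors that induce Atf3 are described by the letters they bind. Capitals mark matches to the C/EBP-ATF composite motif TGATGNAA, here on the opposite strand as TTGCATCA, and to a variant of the cyclic AMP response element, TTACGTCA.
Atf3 promoter: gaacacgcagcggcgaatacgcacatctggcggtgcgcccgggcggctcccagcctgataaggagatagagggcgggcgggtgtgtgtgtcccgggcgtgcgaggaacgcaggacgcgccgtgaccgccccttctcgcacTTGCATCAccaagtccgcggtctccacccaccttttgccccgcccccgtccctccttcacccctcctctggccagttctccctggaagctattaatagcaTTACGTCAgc
The composite match covers positions 110 to 103 before the start, and 3.45% of the 32851 promoters of this length hold that motif on either strand. The TTACGTCA match, a motif added after the sequence had been read, covers positions 10 to 3 before the start and occurs in 0.447% of the promoters. Both strands were also searched for the response element TGACGTCA (1.55% of promoters), TGACGCAA (0.438%), the AP-1 motif TGANTCA (6.75%), the STAT motif TTCNNNGAA (7.02%), the C/EBP motif TTGCNNAA (9.56%) and the NF-kB motif GGGACTTTC (0.289%). These letters are not in the Atf3 window. The 2 marked matches do not overlap.

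Both probes lacked a signal on part of the scans. Each array was scanned 3 times, and Atf3 had a signal in both channels on 38 of the 63 scans, in Cy3 alone on 15, in Cy5 alone on 3 and in neither on 7. Cebpd had a signal in both channels on 45 of the 63 scans. Where both channels had a signal, the median ratio of net signal to local background was 1.22 for Atf3 in the tumour channel and 1.41 in the PBS channel, and for Cebpd it was 1.27 and 1.46. On the scans with both channels, the median brightness percentile was 52.8 for Atf3 and 54.3 for Cebpd, and 8 Atf3 scans and 1 Cebpd scan lay under the 10th. Atf3 had a ratio on 15 of 21 arrays and Cebpd on 16 of 21. Scans of one array disagreed in sign on 7 arrays for Atf3 and on 9 for Cebpd, with a median SD between scans of 0.13 for both genes on the log2 scale. For the labelled tissue, 7 defining genes of midbrain dopamine neurons had values on 14 to 21 of the 21 arrays, at mean brightness percentiles of 35.2 to 73.5. Th, the enzyme that makes the dopamine precursor, had values on 19 arrays at a mean percentile of 37.3 and Pitx3, a factor of these neurons, on 21 at 73.5. A ratio on most arrays is no specific mark of a tissue, since Atf3 and Cebpd had one on 15 and 16 arrays.

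At 18 h the Atf3 ratio was above 0 in each of the 3 replicates that gave a value, at 0.56, 0.33 and 0.12 on the log2 scale of tumour over PBS. All 3 were total RNA, and the 4 polyA arrays of that time gave no Atf3 ratio. Replicate 3 rested on the array with tumour RNA in Cy5 and replicate 4 on the array with tumour RNA in Cy3. In replicate 5, which had both orientations, the arrays stood at 0.24 and -0.004. The fitted value was 0.33 (SE 0.13, 95% interval 0.04 to 0.63, n = 3), a 1.26-fold level, with an adjusted p of 0.878. Its unadjusted limma p was 0.0293, and 5.37% of the 4488 probes had an unadjusted p under 0.05 at 18 h. Atf3 thus did not pass the test at 18 h, and 0% of the probes did. Without replicate 3 the fitted value was 0.22. Replicate 5 was at -0.03 with median centring and at -0.03 with the median over scans. The 12 Atf3 scans with a ratio at 18 h had a median brightness percentile of 20.9, and 5 of them lay under the 10th. These were scans of replicates 4 and 5. With them left out, replicate 4 was at 0.57, from 1 scan at brightness percentile 22.1, and replicate 5 at 0.05.

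At 72 h both replicates lay below 0 for Atf3, at -0.27 and -0.21. The arrays of replicate 3 stood at -0.07 with tumour RNA in Cy5 and -0.46 with tumour RNA in Cy3, and those of replicate 4 at -0.43 and 0.02. The spread between the orientations of one replicate was thus wider than the difference between the replicates. The fitted value was -0.24 (SE 0.16, 95% interval -0.60 to 0.12, n = 2), with an adjusted p of 0.680. With all 28 arrays the value was -0.03, and 2 of 4 replicates were above 0. It was -0.15 without the replicate 3 array with tumour RNA in Cy3. Of the arrays used, that one had the lowest rank correlation between its channels, 0.06 against a median of 0.88. The unadjusted share of probes past 0.05 was 8.82% at 72 h, and 0% passed after adjustment.

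At 192 h, the time that chose the genes, the 4 Atf3 replicates stood at 0.50, 0.49, 0.20 and 0.14, all above 0. The pair of higher values came from polyA RNA and the pair of lower ones from total RNA, with means of 0.49 and 0.17. The polyA values rested on 3 scans out of 9, 1 on each of 3 arrays, with ratios of 0.50, 0.30 and 0.67. In these scans the Atf3 spot lay at percentiles 3.20, 6.30 and 9.46 of brightness, and the other 6 scans of the same arrays lacked a signal in at least 1 channel. On the polyA array with tumour RNA in Cy5, the net Atf3 intensity in the scan with a ratio was 80703 in Cy3 and 77920 in Cy5, against a local background of 55675 and 64175. The tumour channel was thus the lower one before normalization, and the ratio of 0.50 came after it.
In total RNA the Atf3 spot was brighter. On the array of replicate 3 with tumour RNA in Cy3 it lay at percentiles 79.9 to 81.7. Its net intensities in the first scan were 493675 in Cy3 and 607218 in Cy5, and the ratio after loess normalization was 0.31. Here too the tumour channel was the lower one before normalization. The array with the dyes exchanged gave 0.09, and the arrays of replicate 4 gave 0.30 with tumour RNA in Cy3 and -0.03 in Cy5. In both total RNA replicates the value was thus higher with tumour RNA in Cy3. The fitted value at 192 h was 0.33 (SE 0.11, n = 4), a 1.26-fold level. Without either polyA replicate it was 0.17, since the dye term then takes up the value of the other.

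**Figure D1:**
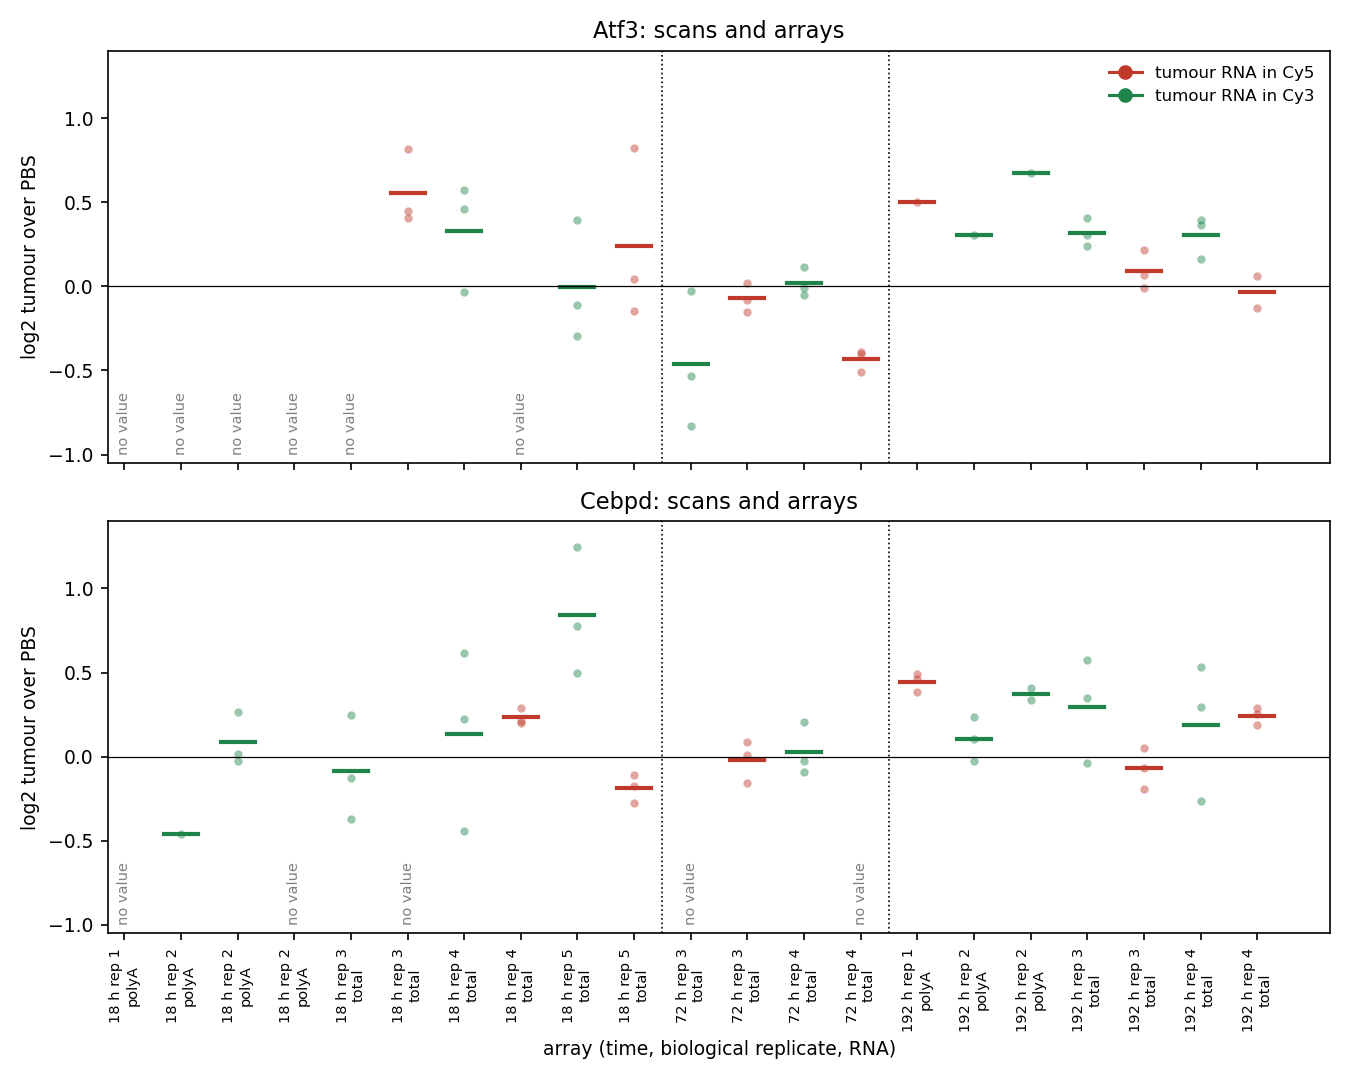
Log2 ratio of tumour over PBS for Atf3 (top) and Cebpd (bottom) on the 21 arrays, ordered by time and replicate. Points are single scans, bars are array means and colours give the dye of the tumour RNA. Atf3 has 1 scan on each polyA array at 192 h, and 6 of the 7 arrays of that time lie above 0 for each gene.

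Cebpd varied around 0 at 18 h. The replicates stood at -0.19, -0.09, 0.18 and 0.33, 2 below and 2 above 0, and replicate 1 gave no value. Both replicates below 0 had values only with tumour RNA in Cy3. Replicate 2, at -0.19, was the mean of an array at 0.09 and an array at -0.46. The lower array rested on 1 scan at brightness percentile 5.09. With scans under the 10th percentile left out, replicate 2 was at 0.09, 3 of 4 replicates were above 0 and the fitted value was 0.15. The 2 orientations of replicate 5 were at -0.18 with tumour RNA in Cy5 and 0.84 with tumour RNA in Cy3, the widest such difference of either gene. The fitted value from all scans was 0.10 (SE 0.11, 95% interval -0.13 to 0.34, n = 4), with an adjusted p of 0.955. It was 0.02 without 18 h replicate 5. With median centring all 4 replicates were above 0 and the fitted value was 0.35 (SE 0.15, adjusted p 0.899).
At 72 h the Cebpd replicates were at -0.02 and 0.03, each from 1 array. The fitted value was 0.01 (SE 0.14, 95% interval -0.31 to 0.32, n = 2), with an adjusted p of 0.996. The interval is wide enough to hold the 192 h value.
At 192 h the 4 Cebpd replicates stood at 0.45, 0.24, 0.11 and 0.22, all above 0. The polyA mean was 0.34 and the total RNA mean 0.16, so the polyA replicates were above the total RNA replicates for both genes. The polyA replicate with tumour RNA in Cy5 was measured on all 3 scans, from 0.39 to 0.49. In replicate 3 the orientations gave -0.07 in Cy5 and 0.30 in Cy3, and in replicate 4 0.24 and 0.19. The fitted value was 0.25 (SE 0.10, n = 4), a 1.19-fold level. It was 0.16 without 192 h replicate 2.

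**Figure D2:**
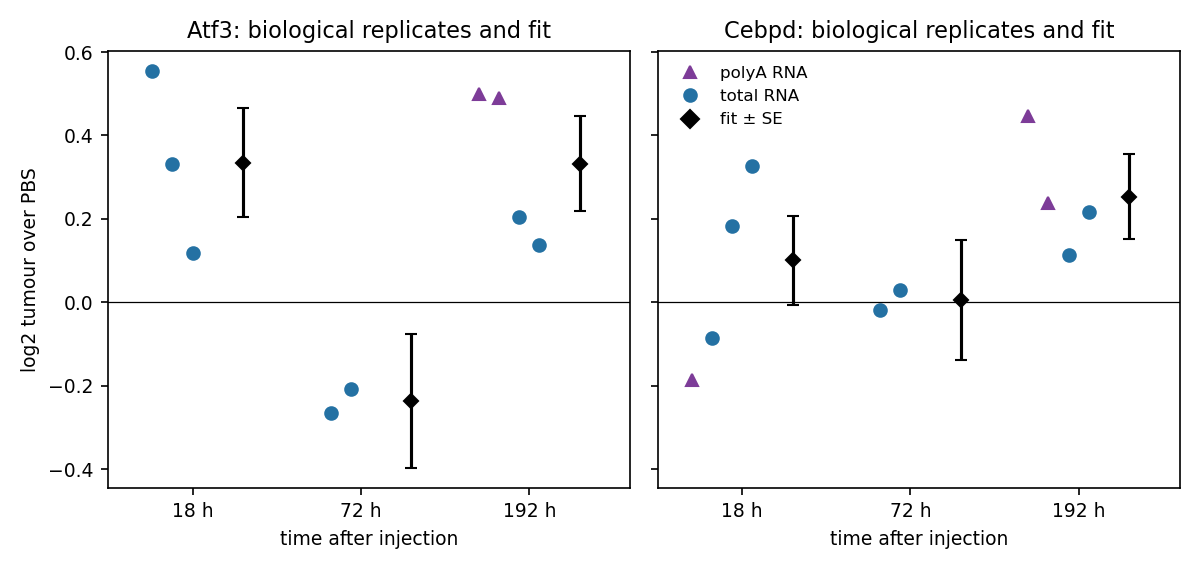
Log2 ratio of tumour over PBS per biological replicate for Atf3 (left) and Cebpd (right) by time, with the fitted value ± SE as a black diamond. Triangles are polyA RNA and circles total RNA. Atf3 replicates lie above 0 at 18 and 192 h and below 0 at 72 h.

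In order of level, Atf3 was highest at 18 and 192 h, where the fitted values were equal to 2 decimals and the replicate ranges overlapped, and lowest at 72 h. The 18 h replicates were all total RNA, and in total RNA alone the values were 0.33 at 18 h and 0.17 at 192 h. The 3 replicates of 18 h and the 2 of 72 h did not overlap. How many of all probes split in this way was not counted, so the split is not read as a result about Atf3. The difference of 72 h minus 18 h, examined after the values had been seen, was -0.57 (SE 0.21) with an adjusted p of 0.721. Its unadjusted limma p was 0.0208, where 6.33% of the probes had an unadjusted p under 0.05 and 0% passed after adjustment. An exact two-sided permutation of the 5 replicates gave p = 0.1, the smallest that 10 splits allow. For Cebpd the same difference was -0.10 (SE 0.18, adjusted p 0.927), and the exact permutation p was 0.867. Over the replicates of 18 and 72 h together, which the choice of the genes did not use, the mean was 0.106 for Atf3 (n = 5, 3 above 0, exact two-sided sign-flip permutation p = 0.5625, smallest possible 0.0625). For Cebpd it was 0.042 (n = 6, 3 above 0, exact permutation p = 0.625, smallest possible 0.03125). Neither mean passed its test. Values for both genes existed in 5 replicates of 18 and 72 h, which is too few for a correlation between them to be tested.

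Among all probes at 192 h, Atf3 lay above 99.4% and Cebpd above 98.4% of the fitted values, as the choice implies. All 4 replicates were above 0 for 123 of the 3973 probes with 4 values, 3.1%. By the lowest replicate, Atf3 at 0.14 ranked 3rd and Cebpd at 0.11 ranked 7th. Just inside the threshold were Pygl and Ascc1, with lowest replicates of 0.0005, and just outside were Vsig2 and Naa80, at -0.0015 and -0.0016. No probe passed the adjusted test at 192 h (0%), and 1% had an unadjusted p under 0.05. The lowest adjusted p of any probe there was 1.00. At 18 h Atf3 lay above 97.4% of the probes and at 72 h above 12.4%, whereas Cebpd lay above 77.2% and 43.7%.

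**Figure D3:**
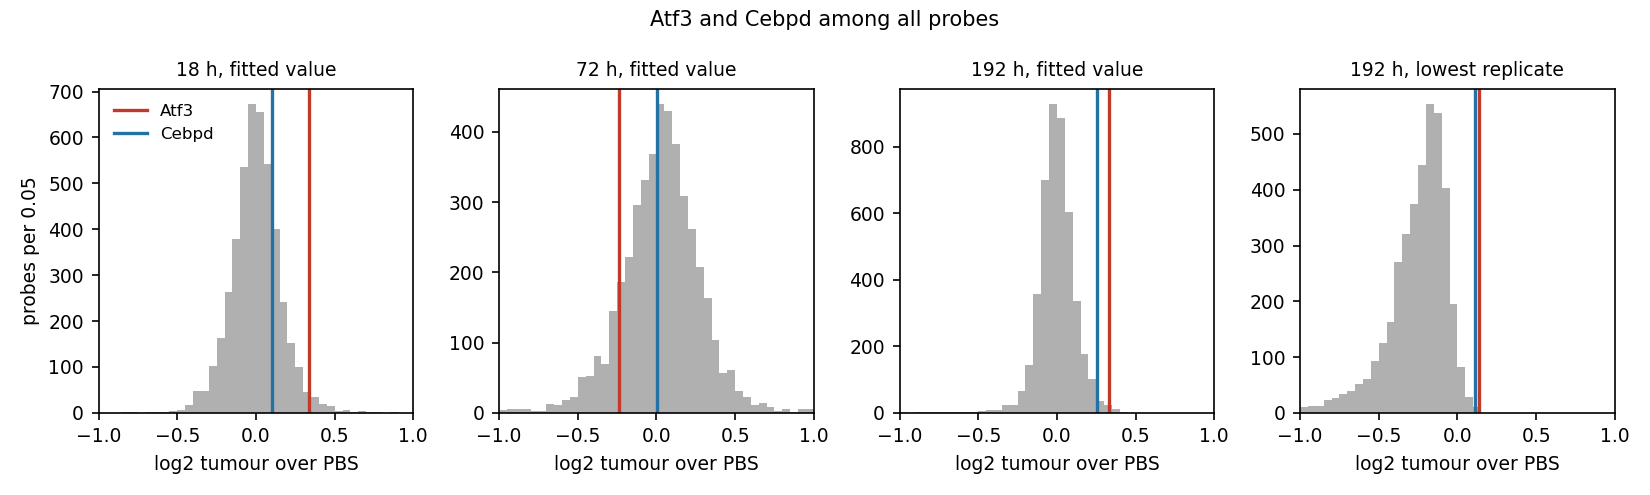
Counts of probes per 0.05 of log2 tumour over PBS for the fitted values at 18, 72 and 192 h (4488 probes each) and for the lowest of 4 replicates at 192 h (3973 probes), with Atf3 and Cebpd as lines. Ratios beyond 1 on either side are not drawn. Both genes lie at the right edge at 192 h, the time that chose them, and Atf3 lies on opposite sides of 0 at 18 and 72 h.

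Under some alternatives of the processing, 3 of the 4 Atf3 replicates at 192 h were above 0. With all 28 arrays this was so, and the fitted value was 0.18. The array of polyA replicate 1 that the rule left out gave -0.75, from 1 scan at brightness percentile 0.91. With arrays centred on their median in place of loess, polyA replicate 1 moved to -0.12 and polyA replicate 2 to 1.38. Without background subtraction, replicate 4 was at -0.03. In the authors' deposited value table, whose log base is not known, the 4 replicates stood at -0.02, 0.19, 0.10 and 0.06. All 4 Cebpd replicates stayed above 0 in the median-centred values (0.09 to 0.68) and without background subtraction (0.16 to 0.37), while the deposited table held 3 of them, at 0.01 to 0.02. When scans under the 10th percentile of brightness were left out, both polyA replicates of Atf3 at 192 h had no value, and the total RNA replicates were unaltered at 0.20 and 0.14. Of the 21 polyA scans at 18 and 192 h, 3 gave an Atf3 ratio, at a median percentile of 6.30, against 35 of 42 total RNA scans at a median percentile of 56.3. For Cebpd the counts were 12 of 21 and 33 of 42, at median percentiles of 56.3 and 52.9. The part of the kind of RNA, of the array design that goes with it, of the dye and of the brightness in the 192 h values was not tested.

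**Figure D4:**
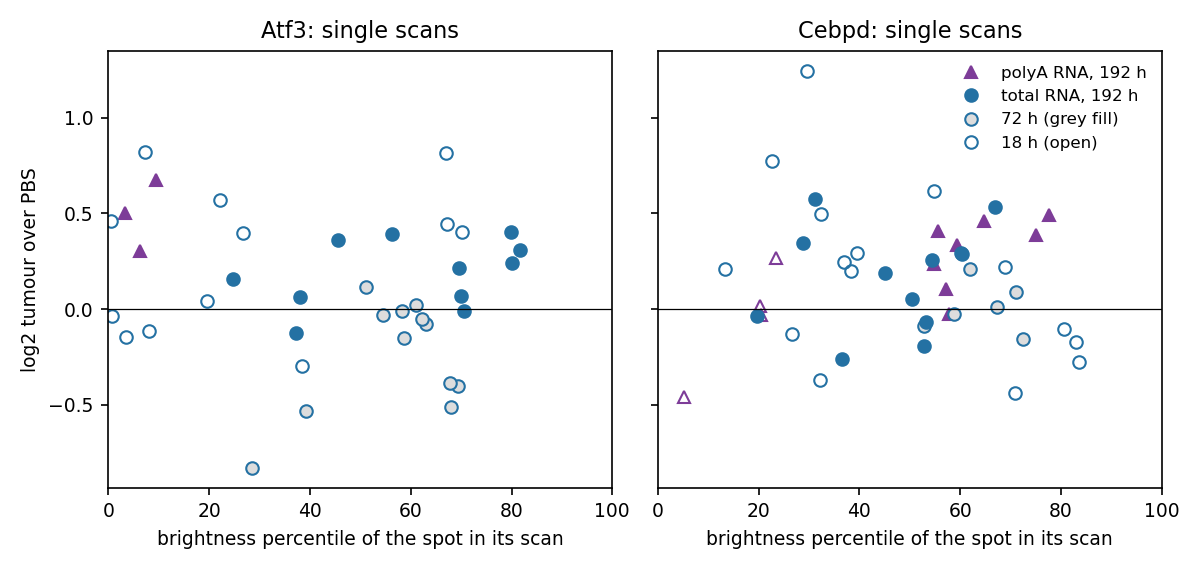
Log2 ratio of tumour over PBS in single scans against the brightness percentile of the spot in its scan, for Atf3 (left) and Cebpd (right). Triangles are polyA RNA, circles total RNA, and the fill gives the time. The 3 polyA scans of Atf3 lie under the 10th percentile, whereas the polyA scans of Cebpd at 192 h lie between the 50th and 80th.

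The genes known to act with, above or below the 2 factors were read from 10 lists. No gene of any list passed the adjusted test at any time, so the following values describe ratios that did not pass. Over all probes, 49.9% were above 0 at 18 h, 57.2% at 72 h and 48.7% at 192 h, with medians of -0.0002, 0.04 and -0.004.

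Of the ATF/CREB and AP-1 partners, 7 of 29 were measured, and 1, 7 and 3 of them were above 0 at 18, 72 and 192 h, with medians of -0.04, 0.23 and -0.05. The count at 72 h was opposite in direction to Atf3 at that time. Creb1, the kinase-responsive factor of the cyclic AMP response element, was at -0.69 at 192 h (SE 0.27, 2 of 4 replicates above 0), and Fos, the AP-1 subunit induced by activity, at 0.22 (SE 0.32, 3 of 4). Fosb, a related subunit, was at -0.14 (SE 0.20) at 18 h, with 3 of 4 replicates above 0 and the lowest at -0.70. Of the C/EBP and related factors, 3 of 10 were measured. Cebpb, the C/EBP factor nearest to Cebpd in its induction by cytokines, was at -0.32 (SE 0.20) at 18 h, below 0 in all 4 replicates, and at 0.14 (SE 0.19) at 192 h, above 0 in 3 of 4. Dbp and Tef, clock-controlled factors of the same class, were at -0.08 and -0.04 at 192 h.

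The integrated stress and unfolded protein response, through which ATF4 induces Atf3, had 22 of 45 genes measured, of which 15, 10 and 11 were above 0 at 18, 72 and 192 h. The medians were 0.03, -0.02 and -0.004. At 192 h Dnajb11, a chaperone of the endoplasmic reticulum, was at 0.23 (SE 0.13, 3 of 3 replicates above 0), Sesn2, a stress-induced inhibitor of growth signalling, at -0.16 (SE 0.12) and Pdia6, a disulfide isomerase, at -0.14 (SE 0.11). At 18 h Phgdh, the first enzyme of serine synthesis, was at -0.23 (SE 0.15) and below 0 in 4 of 4 replicates. The p53 and DNA damage list had 6 of 15 genes measured, with 4, 3 and 4 above 0 and medians of 0.07, -0.03 and 0.05. At 192 h Chek2, a checkpoint kinase, was at 0.16 (SE 0.15, 3 of 4 above 0) and Ei24, a p53-induced gene, at -0.39 (SE 0.36, 2 of 4). Pmaip1, a p53-induced gene of cell death, was at -0.82 (SE 0.39, 1 of 3 above 0) at 18 h. Ccng1, a p53-induced cyclin that was chosen after its value was seen, was at -0.91 (SE 0.32, 1 of 2 above 0, adjusted p 0.529) at 72 h. The stress kinases had 7 of 16 measured, with 1, 4 and 2 above 0 and medians of -0.09, 0.05 and -0.04. Map2k6, a kinase that activates p38, was at -0.28 (SE 0.12, 1 of 4 above 0) at 18 h with an adjusted p of 0.878.

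Of the cytokine signalling genes that act on Cebpd, 9 of 37 were measured, and 4 were above 0 at each time, with medians of -0.01, -0.0005 and -0.03. Irak1, a kinase of interleukin-1 receptor signalling, was at 1.08 at 18 h (SE 0.44, adjusted p 0.878), with its 3 replicates spread from 0.29 to 3.24. At 192 h Rela, an NF-kB subunit, was at 0.21 (SE 0.13, 3 of 4), Il1b, the cytokine itself, at -0.17 (SE 0.13) and Nfkbia, the inhibitor that NF-kB induces, at -0.12 (SE 0.13). The acute phase genes and C/EBP delta targets had 4 of 23 measured, with 1, 3 and 2 above 0 and medians of -0.04, 0.03 and 0.07. At 192 h Lcn2, a secreted iron-binding protein of inflammation, was at 0.19 (SE 0.15, 3 of 4), Itih3 at 0.21 (SE 0.19, 4 of 4) and Serpina3n, an astrocyte-derived protease inhibitor, at -0.17 (SE 0.37). The glucocorticoid-responsive list had 6 of 22 measured, with 3, 4 and 5 above 0 and medians of 0.001, 0.03 and 0.05. Mt1, a metallothionein, was at 0.15 (SE 0.13), Klf9, a direct receptor target, at 0.08 (SE 0.12) and Hsd11b1, which regenerates active glucocorticoid, at -0.18 (SE 0.09, 1 of 4 above 0) at 192 h. At 18 and 72 h Hsd11b1 stood at 0.11 (5 of 5) and 0.10 (2 of 2), and Klf9 at -0.10 (2 of 4) and -0.16 (1 of 2).

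Immediate early genes had 10 of 29 measured, with 3, 7 and 5 above 0 and medians of -0.03, 0.11 and -0.02. Nr4a2, an immediate early gene that also marks midbrain dopamine neurons, was at 0.48 at 18 h (SE 0.16, 4 of 4 above 0, adjusted p 0.878). Egr4 was at 0.18 (SE 0.11, 3 of 4) and Egr3 at -0.15 (SE 0.14, 1 of 4) at 192 h. Bdnf was at -0.19 (SE 0.15, 1 of 4) at 18 h. The nerve injury list had 8 of 18 measured, with 2, 5 and 6 above 0 and medians of -0.03, 0.02 and 0.02. Gal, a neuropeptide induced by axon injury, was at 0.24 (SE 0.15, 4 of 4) at 18 h, and Gadd45a, a growth arrest gene, at -0.13 (SE 0.11) at 192 h. Ecel1, an injury-induced membrane peptidase of neurons, was at 0.09 (SE 0.11, 4 of 4) at 192 h. Stmn2, of the same list, was at -0.10 (SE 0.09, 0 of 4) at that time.

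**Figure D5:**
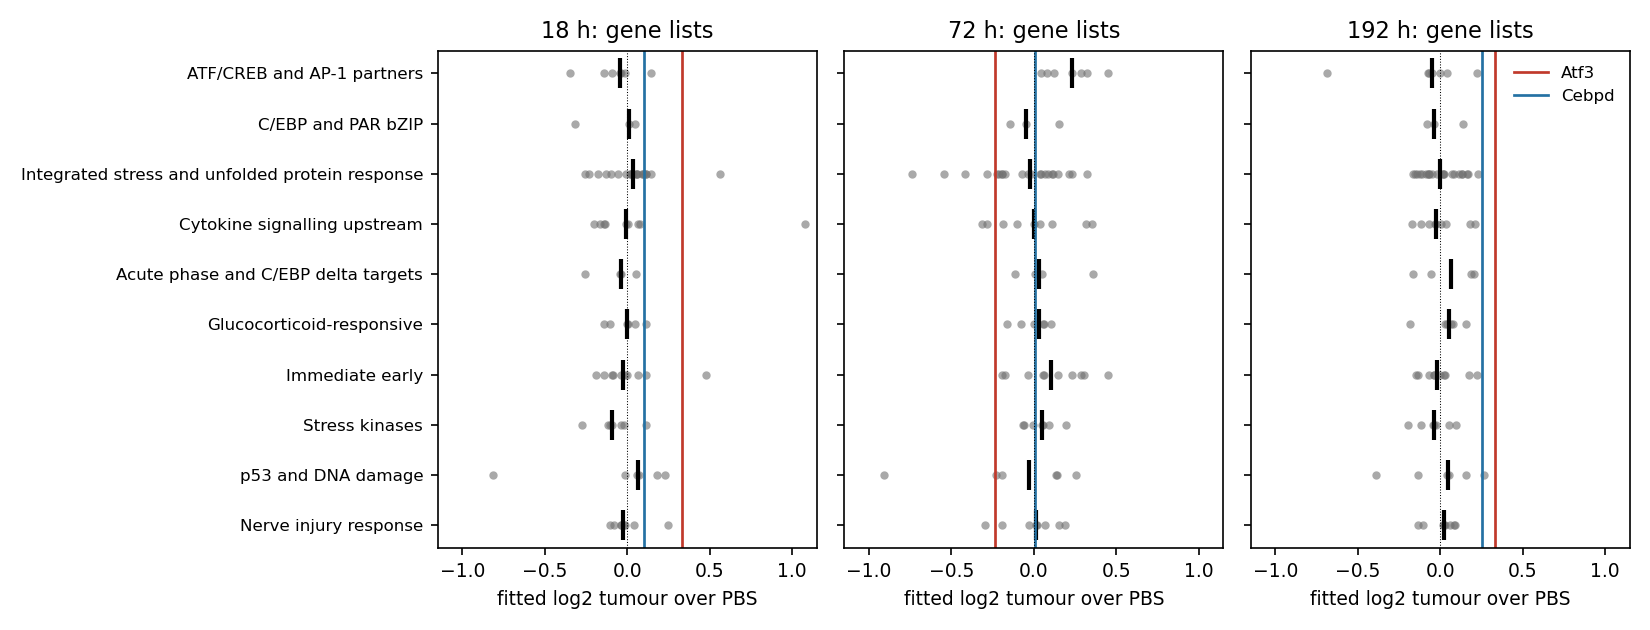
Fitted log2 tumour over PBS of the measured genes of 10 lists at 18, 72 and 192 h; each grey point is a gene, the black tick the list median, and the lines mark Atf3 and Cebpd. List medians lie between -0.09 and 0.23. At 192 h, the time that chose the genes, the lines of both lie to the right of every median, as the choice implies.

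Markers of other cell types did not pass the test either. At 192 h the 3 measured genes of meninges and fibroblasts, of 6 listed, were all above 0 with a median of 0.20, and at 18 and 72 h their medians were -0.06 and 0.002. Microglia and macrophage markers had 3 of 10 measured and medians of 0.02, -0.11 and 0.03, and astrocyte markers 2 of 7 with 0.18 at 72 h and 0.003 at 192 h. Oligodendrocyte markers, 2 of 7 measured, stood at medians of 0.03, 0.18 and 0.01 at 18, 72 and 192 h. Of the 6 measured neuron markers, of 8 listed, 1, 0 and 2 were above 0, with medians of -0.05, -0.10 and -0.04. Choroid plexus and ependyma markers, 2 of 4, stood at 0.02, -0.22 and -0.04, and the 1 measured marker of lymphocytes and neutrophils at -0.06, -0.48 and -0.05. The 7 measured markers of midbrain dopamine neurons, of 10 listed, had medians of 0.09, 0.04 and -0.01 at 18, 72 and 192 h. By these medians, neuron, microglia, choroid plexus and lymphocyte markers were lowest at 72 h, whereas astrocyte and oligodendrocyte markers were highest there. The medians rest on few genes, and single genes went the other way. Mag, an oligodendrocyte marker, was at -0.02 at 72 h against 0.16 at 18 h. Aldh1l1, of astrocytes, was at 0.03 at 72 h against 0.10 at 192 h, and Itgam, of microglia, at 0.12 against -0.09. Endothelial and blood markers had no measured gene. The part of these cell types in the Atf3 and Cebpd values was not tested.

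Of the probes with a value wherever the gene had one, the pattern most like that of Atf3 belonged to Sdad1 (Pearson r = 0.88 over 9 replicates, of 3146 probes), followed by Ttll5 (0.86), Gle1 (0.86), Sec31a (0.85) and Spdye4a (0.85). At 192 h these 5 stood between 0.01 and 0.18. For Cebpd the nearest were Smyd2 (0.94 over 10 replicates, of 3038 probes), Gna11 (0.91), Wnk2 (0.87), Med31 (0.80) and Smpd2 (0.78), at 0.06 to 0.25. The highest r of so many probes over so few replicates is large by selection, and the 95th percentile of all probes was 0.63 for Atf3 and 0.55 for Cebpd. All of these replicates were read with the same probe and normalization, and each polyA replicate carries 1 dye orientation. Atf3 and Cebpd themselves had an r of 0.35 over 9 replicates, with the 192 h values that chose them included, so neither was among the genes most like the other.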

How the data were processed

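The members and the gene lists were chosen with earlier results of these data known. Per the file headers, the deposited scanner files hold spot intensity in each channel with local background subtracted, and a value of 0 was read as no signal. The headers call the channels A and B. These were read as Cy3 and Cy5, the order of the channels in the labels, which assign a dye to each RNA. The headers do not name the dyes. The authors' deposited value table has no stated scale or log base and was treated as a score. Its column medians lay between -0.007 and 0.012 and it correlated with the scanner ratios at 0.58 to 0.88 under this reading. Since the table's own direction is not stated, that is no separate check of the sign.

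Log2 ratios were loess-normalized per scan (span 0.3, 4 iterations), and scans, then arrays of a replicate, were averaged as tumour over PBS. Probes among the dimmest 33.3% were dropped, and 3, 2 and 3 replicates at 18, 72 and 192 h were required, which left 4488 probes. With R 4.3.3 and limma 3.58.1, a mean per time and a replicate dye term were fitted over 11 replicates, with Benjamini-Hochberg adjustment at 0.05 over all probes. The dye term followed the arrays hybridised, so a replicate with both orientations counted as balanced even where a gene had a value in only 1. Atf3 at 18 h and Cebpd at 18 and 72 h held such replicates. With the term coded by probe, Cebpd at 18 h was 0.11 and the Atf3 values were unaltered. Gene names came from platform annotation updated through RefSeq. Of 9008 accessions, 4855 matched by accession and 4057 by gene number, 85 kept their symbol and 11 were not named. Arrays numbered below 309, 7 of the 28, were left out by the rule that chose the genes. On those used, 18.1% to 87.7% of spots had a signal in both channels. Named genes are the members, up to 3 of each list by smallest p at 18 and at 192 h, the 5 nearest patterns and the 2 genes on each side of the threshold; of the list genes, some are given as counts and medians alone. Motifs were searched with Python 3.11.15.

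Alternatives were median centring, no background subtraction, dim probes kept, all 28 arrays, 1 array left out, the median over scans, other dye terms, the authors' table, total RNA alone, a replicate block and each replicate left out. Cuts on dim scans and on scan number, and the difference of 72 h minus 18 h, were added after seeing the data.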

Additional observations from a re-analysis of the deposited data

Results flagged for a closer look

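Atf3 stood above 0 in all 3 replicates at 18 h and below 0 in both replicates at 72 h, which drew attention to it. The share of all probes with such a split was not counted, so the split alone is no result about Atf3. Replicate 5 at 18 h was at -0.03 with median centring and with the median over scans, and with all 28 arrays 2 of 4 replicates at 72 h were above 0. The fitted difference of 72 h minus 18 h was -0.57 on the log2 scale, and -0.49 without the 72 h replicate 3 array with tumour RNA in Cy3. It did not pass the limma test over all probes (adjusted p 0.721), and the number of replicates allows no exact permutation p under 0.1.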

How the results depend on the processing

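No adjusted limma p of either gene at 18 or 72 h, or of the difference between these times, passed under any alternative that gave a value, 22 for Atf3 and 24 for Cebpd (lowest 0.294, for the Atf3 difference). Atf3 kept its sign at 18 h (0.12 to 0.51), 72 h (-0.29 to -0.03) and in the difference (-0.69 to -0.15). The ends 0.12, -0.03 and -0.15 came from the authors' table, whose log base is not known. Among the log2 alternatives these ends were 0.22, -0.03 and -0.37. The fit gave Atf3 no value when dim scans or arrays with 1 scan were left out, because 2 replicates then remained at 192 h. Cebpd at 72 h turned to -0.081 with median centring, -0.31 with all 28 arrays, -0.061 without the 72 h replicate 3 array with tumour RNA in Cy3, and -0.0085 with the median over scans, and was 0.26 without background subtraction. Its 72 h minus 18 h difference turned to 0.18 without background subtraction and was -0.43 with median centring and -0.40 with all 28 arrays, and its mean over 18 and 72 h to -0.11 with all 28 arrays. Cebpd at 18 h was 0.35 with median centring (unadjusted limma p 0.0387). In the authors' table Atf3 at 192 h moved to 0.081 and Cebpd to 0.050, and Cebpd stood at -0.014 at 18 h, -0.022 at 72 h and -0.032 over both. With single replicates left out, Cebpd at 72 h lay between -0.019 and 0.030, Atf3 over 18 and 72 h between -0.0062 and 0.20, and Cebpd over both between -0.015 and 0.087. The lowest of these left out 72 h replicate 4, 18 h replicate 3 and 18 h replicate 5, in that order. The causes were not tested.

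Probes called at 72 h numbered 0 in the fit reported (396 at an unadjusted p under 0.05), 3 with median centring, 3 without background subtraction, 1 with all 28 arrays and 2 with total RNA alone. With single replicates left out they ranged from 0 to 292, the highest without 72 h replicate 4, and at 18 h from 0 to 1, the highest without 18 h replicate 4. No probe was called at 192 h under any of 22 alternatives (45 at an unadjusted p under 0.05 in the fit reported). Same-numbered replicates correlated over 0.1 in 5 of 8 pairs (-0.13 to 0.31 over 2263 probes), with a mean of 0.11 against -0.03 for other pairs, and not every replicate correlated best with its own number. Not every pair exceeded 0.1, so the numbers were not treated as pairing the samples. With a replicate block, 3 probes were called at 72 h, and the Cebpd difference of 72 h minus 18 h was 0.0078. Arrays carry no counts, and the precision is limited by 2 to 4 values per time and by signals close to the local background.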
